A study of Mus musculus with 6 samples.

Results

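Of the 9 mast cell genes examined in mouse islet cells, 4 were measured above background, and of these only the tryptase gene Tpsb2 passed the test between cells with and without T lymphocyte exosomes. The 9 genes encode granule proteases (Tpsb2, Tpsab1, Cma1, Mcpt4 and Cpa3), receptors (Kit, Fcer1a and Ms4a2) and the histamine-forming enzyme Hdc. They were chosen by name, and each was measured by its brightest probe on the array. The choice was made with the rise of Tpsb2 in these samples already known, so that rise is given as a description and not as independent evidence. The array measured 32854 genes or unnamed probes, of which 25805 were tested because their signal exceeded background throughout the control group, the exoNOD group or both.

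Pancreatic islets of male C57Bl/6N mice were dispersed into cells and cultured for 72 h. The control group (3 arrays) had no addition. The exoNOD group (3 arrays) was given 50 µg/ml of exosomes, which are small vesicles shed by cells, taken from medium in which CD4+CD25- T lymphocytes of NOD mice had grown. NOD is a strain that develops autoimmune diabetes. The 3 experiments used separate islet and exosome preparations. Because no control received vesicles from other cells or of another strain, an effect of these exosomes cannot be told apart from an effect of exosomes as such.

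Mast cells are tissue-resident immune cells whose granules hold tryptases, chymases, carboxypeptidase A, heparin and histamine. They need the receptor Kit and its ligand, stem cell factor, to survive. They release their granules when an antigen cross-links IgE bound to the high-affinity IgE receptor, in which Fcer1a is the chain that binds IgE and Ms4a2 a chain that amplifies the signal. In the pancreas they lie mostly in connective tissue, near ducts and vessels.

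Every array held 43020 spots for transcripts, of which 78.1% to 81.8% were well above background and 0 were saturated. A level is the log2 of a signal after subtraction of the 75th percentile of its array, so a level of 0 is a signal at that percentile. Changes are exoNOD minus control, with 3 arrays per group. Judging by scan time, the 3 controls and exoNOD replicate 1 shared a slide, and exoNOD replicates 2 and 3 lay on another. The number of arrays limits the precision. Probes differ in how brightly they report a transcript, so each gene is compared between arrays and not with other genes.

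The name mast cell genes was read against the members themselves, since they include the markers that define the cell. The signals of Cpa3, Cma1, Fcer1a and Ms4a2 were well above background on 0 of 6 arrays. Tpsab1 had no probe matched by accession. RefSeq lists Tpsab1 as a transcribed pseudogene in the C57BL/6J assembly, a substrain close to that of these islet donors. The genes that were measured, Tpsb2, Mcpt4, Kit and Hdc, were each above background on all 6 arrays. Kit and Hdc are also made by other cells. The name therefore describes the set, and mast cells were not shown to be present in these samples.

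Promoter sequence is shown for 3 of the protease genes, because the measured chymase Mcpt4 can be set beside Cma1, which lies in the same cluster of chromosome 14, and beside Cpa3, both of which stayed at background. GATA factors are known regulators of mast cell genes, and the bases in capitals are matches to a GATA motif. The motif was searched on both strands as AGATAA and TGATAA and as the forms of each that end in G. The sequences are the 250 bases before the start of the gene from RefSeq, build GRCm38.p6, and are written 5′ to 3′ on the strand of the gene, which is the minus strand for each.
Mcpt4, chr14:56062311-56062560: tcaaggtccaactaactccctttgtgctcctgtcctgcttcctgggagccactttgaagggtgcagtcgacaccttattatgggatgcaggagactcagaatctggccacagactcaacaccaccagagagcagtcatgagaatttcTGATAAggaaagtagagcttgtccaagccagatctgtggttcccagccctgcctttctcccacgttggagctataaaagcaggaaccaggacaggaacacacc
Cma1, chr14:55944676-55944925: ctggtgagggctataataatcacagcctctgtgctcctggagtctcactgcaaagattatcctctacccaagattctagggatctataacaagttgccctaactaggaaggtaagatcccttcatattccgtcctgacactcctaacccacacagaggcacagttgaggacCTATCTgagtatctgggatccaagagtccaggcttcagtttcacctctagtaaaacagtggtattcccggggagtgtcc
Cpa3, chr3:20242182-20242431: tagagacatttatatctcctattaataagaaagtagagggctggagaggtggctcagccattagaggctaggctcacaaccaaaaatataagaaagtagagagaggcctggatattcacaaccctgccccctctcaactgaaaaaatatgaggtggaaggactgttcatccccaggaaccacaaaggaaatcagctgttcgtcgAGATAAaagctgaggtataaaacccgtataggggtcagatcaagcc

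Each of these 3 windows holds 1 GATA match, at 103 bases before the start in Mcpt4, 79 in Cma1 and 46 in Cpa3. Such a match is common, since 26.5% of the 32851 promoter windows of this length hold at least 1. Of the 9 genes, 7 had a promoter in the table, which lacked Tpsb2 and Tpsab1, so their promoters were not searched. All of the 7 except Kit held a GATA match, with 3 in Ms4a2. The E-box CATGTG, a form bound by the mast cell factor Mitf, was searched on both strands and was found in Fcer1a alone, against 12.3% of all windows. The measured gene Mcpt4 and the undetected genes Cma1 and Cpa3 were thus alike in holding a GATA match. The matches describe letters in the sequence and carry no measurement of binding.

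Tpsb2 encodes a tryptase of mast cell granules that is stored bound to heparin. Its brighter probe had signals of 273, 271 and 239 on control replicates 1, 2 and 3, and of 643, 582 and 786 on exoNOD replicates 1, 2 and 3. All exoNOD arrays lay above all control arrays, as for 14.6% of all tested genes. The gap between the lowest exoNOD and the highest control level was 1.03 on the log2 scale. The level was −1.70 ± 0.07 (SD, n = 3) without exosomes and −0.41 ± 0.21 with them, a 2.45-fold difference in signal. The log2 change was 1.30 ± 0.14 (SE, limma adjusted p = 0.0300, 0.000729 with the replicate number as a block). The arrays of equal replicate number differed by 1.2, 1.1 and 1.59. On the slide that held both groups, exoNOD replicate 1, its only exoNOD array, exceeded the control mean by 1.27.

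Over all tested genes, 0.105% passed without the block, and among the tested mast cell genes 1 of 4. With the block the shares were 8.35% of all genes and again 1 of 4. Because Tpsb2 was known to rise when the genes were chosen, nothing is read from these shares. The call of Tpsb2 in limma was lost without control replicate 1 (adjusted p = 0.132), control replicate 2 (0.154), exoNOD replicate 2 (0.146) or exoNOD replicate 3 (0.0754), with changes between 1.18 and 1.39. It was also lost with slide as a block (1.27, adjusted p = 0.410), where a single exoNOD array carries the comparison, after median scaling (0.0527), without the filter on dim probes (0.104) and without the variance trend (0.0716).

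**Figure D1:**
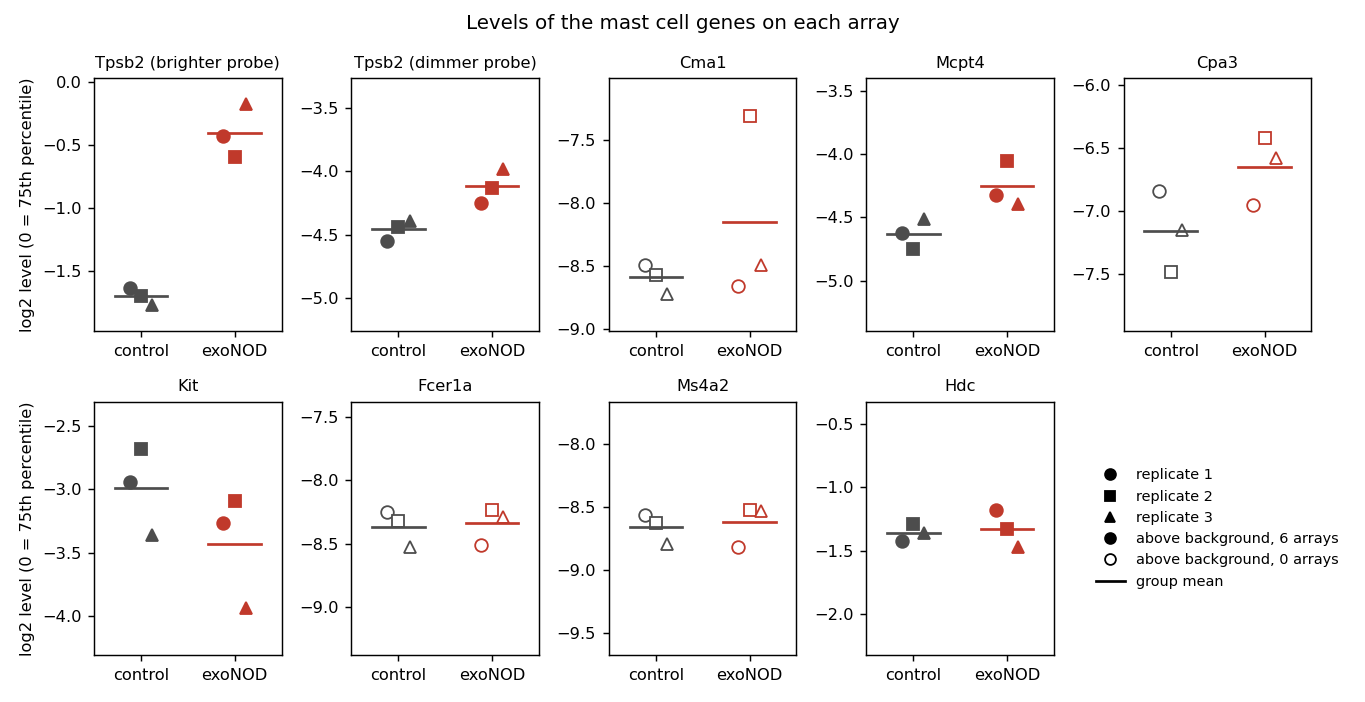
Log2 level (0 is the 75th percentile of the array) of each probe of the mast cell genes on the 3 control and 3 exoNOD arrays, with bars at the group means and each panel spanning 2 log2 units. Filled points are probes above background on all 6 arrays and open points are probes above background on 0 arrays. The brighter Tpsb2 probe separates the groups by 1.03, while the levels of Kit and Hdc overlap.

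A second probe for Tpsb2, matched to the same RefSeq transcript, gave a much smaller difference. Its signals were 36.1, 40.6 and 38.7 on the control arrays and 45.8, 50.4 and 56.4 on the exoNOD arrays. Its groups again did not overlap, with a gap of 0.14 on the log2 scale (14.6% of all tested genes lay apart in this direction). In the fit over all 31080 probes its log2 change was 0.34 ± 0.16 (SE, limma adjusted p = 0.336, 0.215 with the block), against an adjusted p of 0.0347 for the brighter probe in the same fit, in which 0.0804% of probes passed. The pairs of equal number differed by 0.31, 0.31 and 0.41.

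The distance between the brighter and the dimmer probe was 2.76 ± 0.15 (SD, n = 3) without and 3.71 ± 0.16 with exosomes, a difference of 0.95. It is given as a description, since an exact two-sided permutation test of 3 arrays against 3 cannot give a p under 0.100. Averaging both probes lowered the change of Tpsb2 to 0.82 (limma adjusted p = 0.0872). The probe sequences were not used here, so whether either probe also reads the neighbour Tpsab1 or another transcript form was not tested.

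Mcpt4 is a chymase of connective tissue mast cells. Its signals were 34.5, 32.8 and 35.5 on the control arrays and 43.5, 53.2 and 42.5 on the exoNOD arrays. The exoNOD arrays lay above the controls by a gap of 0.13. In 14.6% of all tested genes the groups lay apart in this direction, by a gap of any size. The log2 change was 0.37 ± 0.17 (SE) and did not pass (limma adjusted p = 0.321, 0.233 with the block). The pairs differed by 0.30, 0.70 and 0.13. In the authors' processed values the change was 0.16.

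Cpa3 encodes the carboxypeptidase of mast cell granules and Cma1 a chymase stored with it. The signals of Cpa3 were 7.38, 4.93 and 5.73 on control and 7.02, 10.3 and 9.30 on exoNOD arrays. Those of Cma1 were 2.35, 2.33 and 1.92 on control and 2.14, 5.59 and 2.47 on exoNOD arrays. On each array both genes lay under the lowest signal marked as well above background there, which was 11, 11 and 9.08 on control and 9.60, 12 and 12 on exoNOD replicates 1, 2 and 3. Both genes thus stayed at background and no fold is given. Among the exoNOD arrays, replicate 2 had the highest signal of both genes. Without the filter on dim probes neither passed (adjusted p = 0.407 for Cpa3 and 0.605 for Cma1), nor did any other mast cell gene.

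The chain of the IgE receptor that binds IgE, Fcer1a, had signals between 2.19 and 2.77 on control and between 2.39 and 2.94 on exoNOD arrays. The signal-amplifying chain Ms4a2 lay between 1.83 and 2.24 on control and between 1.92 and 2.41 on exoNOD arrays. Both were at background on every array. Their partner Fcer1g, a signalling chain that other Fc receptors of myeloid cells also use, was above background on all 6 arrays and changed by −0.03 (limma adjusted p = 0.915).

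Kit, the receptor for stem cell factor, is also made by cells other than mast cells. Its signals were 110, 138 and 79.0 on control replicates 1, 2 and 3, and 90.2, 104 and 57.8 on the exoNOD replicates. In each pair of equal number the exoNOD array was the lower, by −0.32, −0.41 and −0.58, but the groups overlapped. In both groups replicate 3 had the lowest and replicate 2 the highest signal. The log2 change was −0.44 ± 0.26 (SE) and did not pass (limma adjusted p = 0.414, 0.0841 with the block). Its direction was opposite to that of Tpsb2. The gene of its ligand, Kitl, changed by 0.26 (0.457).

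Hdc forms histamine from the amino acid histidine, in mast cells, basophils and some endocrine cells. It had signals of 317, 361 and 315 on control and of 383, 352 and 320 on exoNOD arrays, and the groups overlapped. The log2 change was 0.03 ± 0.12 (SE, limma adjusted p = 0.919), with pair differences of 0.24, −0.04 and −0.11. Its sign turned under quantile normalization (−0.029) and median scaling (−0.11).

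**Figure D2:**
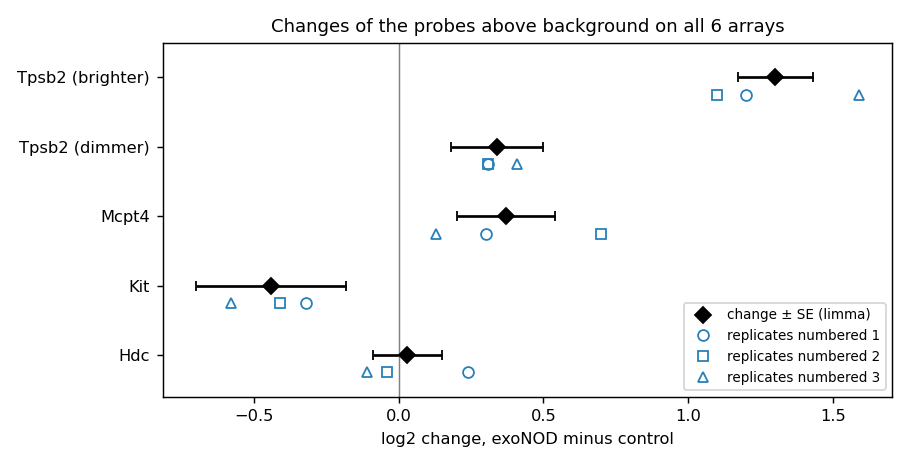
Log2 change (exoNOD minus control) of the 5 probes above background on all 6 arrays, with the standard error of the limma fit over all probes (black) and the differences of arrays with equal replicate number (blue). The brighter Tpsb2 probe lies at 1.30, the dimmer at 0.34, Mcpt4 at 0.37, Kit at −0.44 and Hdc at 0.03.

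Across the 6 arrays the levels of the measured genes did not follow a shared course. The correlation with Tpsb2 was 0.74 for Mcpt4, −0.65 for Kit and 0.043 for Hdc, and that between Kit and Hdc was 0.45. These values describe 6 arrays that share 2 groups, so genes that differ between the groups correlate for that reason alone. The gene with a symbol whose levels were most like those of Tpsb2 was Rnase10, of the ribonuclease A family (r = 0.9984 over 6 arrays, log2 change 1.64). Next came Pole4, a DNA polymerase subunit (0.9947), Mrpl18, a mitochondrial ribosomal protein (0.9937), and Kif19a, a kinesin (0.9928). In all, 133 other genes had a correlation over 0.95 with Tpsb2. No such list was drawn for Cpa3, which was at background.

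Other proteases that lie near these genes on chromosomes 17 and 14 or are related to them were looked at next. Of 23 such genes, 16 were tested, 14 of them with a positive and 2 with a negative change, against 55.4% positive over all tested genes. None passed in limma without the block, and 5 had an unadjusted p under 0.05, as did 16.6% of all tested genes. With the block 2 rose, as did 6.63% of all tested genes. Their median change was 0.31, against 0.04 for all tested genes of any brightness. Under quantile normalization 11 were higher and 4 lower, with a median of 0.18, and with normexp the median was 0.15. The median signal of an array was 111.5 to 116.7 in the control and 121 to 140.5 in the exoNOD group. The part of that difference in the changes of dim genes was not tested.

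The genes that rose with the block were Prss29 and Prss28, tryptase-like proteases of the same chromosome 17 cluster as Tpsb2, best known from the uterus. Prss29 had signals of 30.4, 24.8 and 28.5 on control and of 45.7, 59.9 and 47.2 on exoNOD arrays (log2 change 0.80, limma adjusted p = 0.135, 0.0431 with the block). Prss28 had 205, 220 and 216 on control and 232, 409 and 382 on exoNOD arrays (0.57, 0.247, 0.0424 with the block). With normexp the changes were 0.25 for Prss29 and 0.44 for Prss28. The groups did not overlap for Prss29, as for 14.6% of all tested genes in the same direction. For Prss28 the level of exoNOD replicate 1, on the slide of the controls, was −1.91, as was that of the highest control, while exoNOD replicates 2 and 3 of the other slide were at −1.11 and −1.22. The part of the slide in this was not tested.

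Tpsg1, a membrane-bound tryptase near Tpsb2, was above background on 0 arrays. In the chymase cluster, the mucosal mast cell chymase Mcpt1 changed by 0.63 (limma adjusted p = 0.239) and the granzyme gene Gzmb by 0.86 (0.205), and neither passed with the block (0.141 and 0.0690). Both were above background on 5 of 6 arrays. Mcpt2, the other mucosal chymase, and the basophil protease Mcpt8 were above background on 0 arrays.

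**Figure D3:**
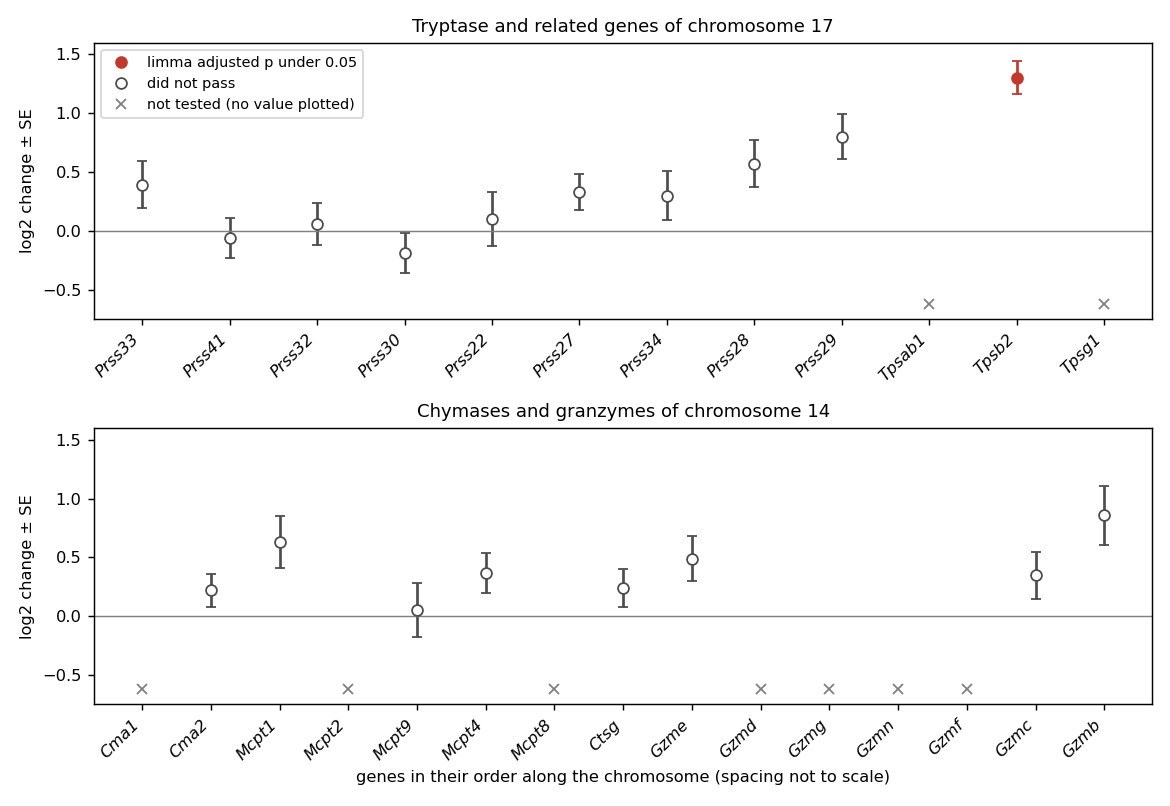
Log2 change with standard error of the proteases near Tpsb2 on chromosome 17 and near Cma1 and Mcpt4 on chromosome 14, in their order along the chromosome and not to scale; other genes between them are left out. Crosses at the bottom mark genes with no tested probe. Tpsb2 (1.30) passed. Prss29 (0.80) did not pass without the block, and Gzmb (0.86) did not pass with or without it.

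Genes for the other contents of the granule and for lipid mediators gave 14 tested genes of 15, of which none passed without the block (5 at an unadjusted p under 0.05 in limma, against 16.6% of all tested genes). Srgn, the proteoglycan core that holds proteases and histamine in granules of mast cells and many other leukocytes, rose with the block. It had signals of 1150, 905 and 1310 on control and of 2070, 1730 and 2970 on exoNOD arrays. The exoNOD arrays lay above all controls, as for 14.6% of all tested genes. The log2 change was 0.93 (limma adjusted p = 0.134, 0.000730 with the block). Ptgs1, a cyclooxygenase, changed by 0.91 (0.290), the secretion factor gene Stxbp2 by 0.32 (0.279) and the heparin-forming enzyme gene Ndst2 by −0.26 (0.285), and none of these 3 passed with the block.

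Of 6 genes for histamine breakdown and receptors, 4 were tested. With the block 6.63% of all tested genes rose, and 1 of these 4. This was the histamine receptor Hrh4, with signals of 540, 487 and 475 on control and of 608, 828 and 971 on exoNOD arrays (log2 change 0.60, limma adjusted p = 0.190, 0.0308 with the block). Its groups did not overlap, as for 14.6% of all tested genes in that direction. Among the exoNOD arrays, replicate 1 was the lowest. The histamine methyltransferase gene Hnmt changed by −0.05 (0.946).

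The IgE receptor partners and other mast cell receptors gave 0 of 11 passing in limma, with or without the block. At an unadjusted p under 0.05 were 16.6% of all tested genes and 1 of these 11. That was Il1rl1, the receptor for interleukin 33, which changed by 0.81 (adjusted p = 0.235, 0.0585 with the block). Mrgprb2, a receptor that triggers mast cells without IgE, changed by 0.30 (0.573). Their median change was 0.15, but −0.06 under quantile normalization, where 7 of 11 were lower.

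Transcription factors of the lineage also gave 0 of 6 passing in limma, with or without the block. Of these, 1 had an unadjusted p under 0.05, as did 16.6% of all tested genes. Of these 6, 3 were higher and 3 lower. Stat5b changed by 0.24 (0.240), Mitf by −0.28 (0.306), Gata1 by 0.43 (0.474) and Gata2 by −0.17 (0.703). Tal1 was above background on 0 arrays. The 6 tested growth and recruiting factors had positive changes, against 55.4% positive over all tested genes. Il33 changed by 0.71 (0.335) and Il3 by 0.65 (0.368). None of the 6 passed in limma with or without the block, and 0 had an unadjusted p under 0.05. Under quantile normalization 1 of the 6 was lower.

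Markers of other cells that could share these transcripts were read on the same arrays. Basophils also make Fcer1a, Ms4a2 and Hdc. Among their 5 markers, Mcpt8 and Cd200r3 were above background on 0 arrays, and the other 3 did not pass in either fit. Prss34 changed by 0.30 (limma adjusted p = 0.494), Ccr3 by 0.19 (0.726) and Il3ra by 0.05 (0.891), and under quantile normalization 1 of the 3 was lower. The summed linear signal of the 5 probes, divided by the 75th percentile of the array, lay between 0.735 and 0.907 on control and between 0.742 and 0.958 on exoNOD arrays. Most of that sum came from the probe of Il3ra. Of 10 neutrophil and eosinophil markers, S100a8 and Epx were above background on 0 arrays. The 4 tested genes all had positive changes, against 55.4% positive over all tested genes. Their median was 0.34, and 0.32 under quantile normalization, where all were positive too. None of the 4 passed in limma with or without the block, and 0 had an unadjusted p under 0.05. Of all tested genes, 8.35% passed with the block and 16.6% were at that unadjusted p without it. Elane, a neutrophil elastase, had signals of 7340, 5210 and 5670 on control and of 6120, 9940 and 8250 on exoNOD arrays, and its groups overlapped (log2 change 0.35, limma adjusted p = 0.387). Ear6 changed by 0.32 (0.409) and Mpo by 0.27 (0.629), both above background on all 6 arrays. Siglecf, above background on 5 of 6 arrays, changed by 1.23 ± 0.76 (SE, 0.438). The part of these cells in the rise of Tpsb2 was not tested.

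Lymphocyte markers were read because the exosomes came from T lymphocytes. With the block, 1 of 7 tested T lymphocyte markers rose, the kinase gene Lck (0.63, limma adjusted p = 0.00385), named after its value was seen. Of the 7, 6 had a positive change and 1, Cd3e, a negative one (−0.18, limma adjusted p = 0.434 with the block). Cd3g was above background on 0 arrays and Cd3d on at most 2 of 6. Of the B lymphocyte markers 2 of 6 rose with the block, Ms4a1 (log2 change 1.73, limma adjusted p = 0.00942) and Cd79b (1.05, 0.00530). Ms4a1 was above background on 3 of 6 arrays, with signals of 10.9, 10.6 and 7.83 on control arrays. It was thus tested only because of its signal in the exoNOD group. With normexp the changes were 0.35 for Ms4a1 and 0.49 for Cd79b. Among macrophage and dendritic cell markers Mrc1 changed by 2.20 (0.00209 with the block, 0.0621 without) and Adgre1 by −0.87 (0.0174 with the block, 0.259 without). Mrc1 was above background on at most 4 of 6 arrays, with signals of 12.2, 10.1 and 20 on control arrays. Its change was 0.74 with another background correction (normexp). Of the endocrine markers, 9 of 9 tested had a negative change (7 of 9 under quantile normalization), and the transcription factor genes Nkx6-1 (−0.42, 0.0145) and Pdx1 (−0.37, 0.0427) fell with the block. Without the block 0 markers of these lists passed in limma, with 2, 3, 2 and 2 at an unadjusted p under 0.05 for 7 T lymphocyte, 6 B lymphocyte, 8 macrophage and dendritic cell and 9 endocrine markers tested. Over all tested genes the share at that unadjusted p was 16.6%, and 8.35% passed with the block. A positive change was seen in 55.4% of all tested genes. Their part in the rise of Tpsb2 was not tested. In bulk RNA, more cells of a type and more RNA per cell cannot be told apart.

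**Figure D4:**
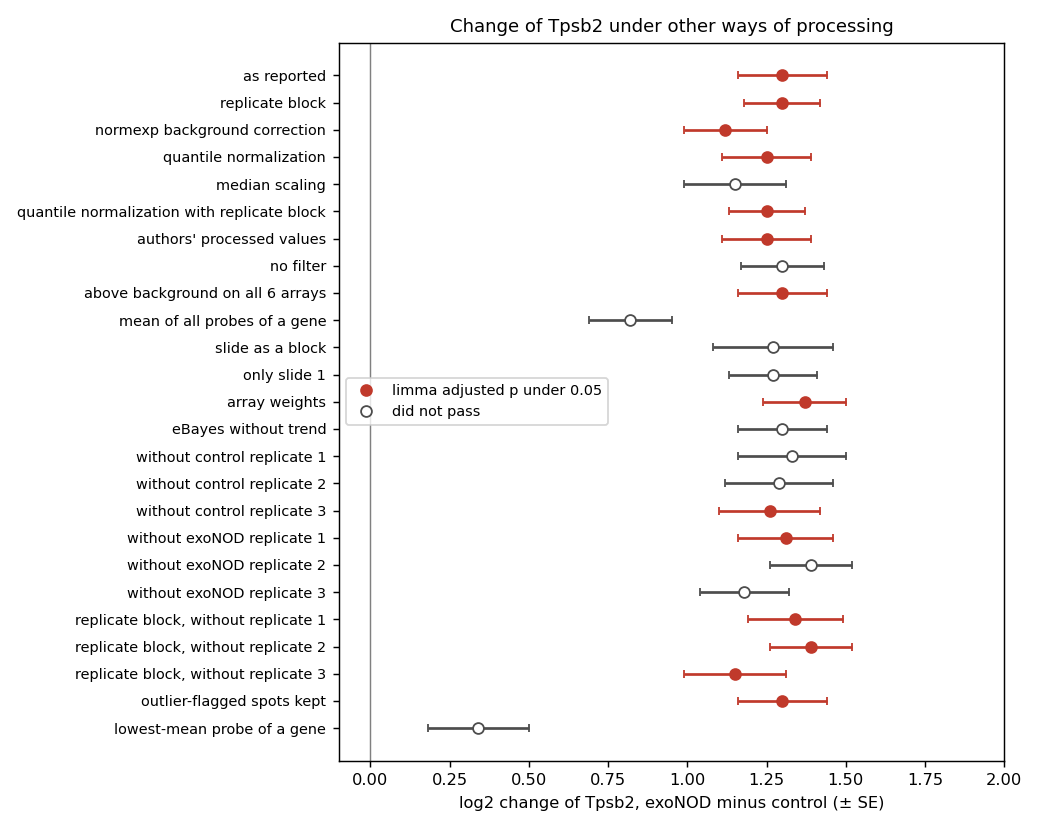
Log2 change of Tpsb2 (exoNOD minus control) with its standard error as reported and under 24 other ways of processing, filled where the limma adjusted p was under 0.05. All estimates are positive, and the lowest is that of the dimmer probe (0.34).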

How the data were processed

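Cy3-labelled total RNA was measured on Agilent mouse arrays of 1 colour whose design names build mm9, per the file headers. The deposited processed signal is an intensity that the authors' software, Agilent Feature Extraction 11.0.1.1 (per the submitters' processing notes), corrected for background within the array. The deposited spot flags are other values, 0 or 1, per the file headers. A deposited table gives the authors' own log2 values, with a normalization not given in the sources used here; these served as an alternative.

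Signals were taken as log2, spots of a probe averaged without flagged outliers, and the 75th percentile of the array subtracted. A probe was tested only if, for either group, each of its arrays showed it well above background. Of 39429 probes, 27234 received a symbol through RefSeq accessions of GRCm38.p6 and 12195 stayed under the probe name. A gene was represented by its brightest probe on average. Groups were compared in limma 3.58.1 (lmFit, eBayes with a trend, R 4.3.3), with p-values adjusted by Benjamini-Hochberg over all genes at a threshold of 0.05; files were read with data.table (version 1.17.8), and the fit was tested on simulated data. As a check of pairing, array deviations from their group mean were correlated over genes. Arrays sharing a replicate number gave 0.361, 0.278 and 0.470, and the rest −0.338 to 0.00889. Deviations within a group sum to 0 for each gene, so the low values of the rest partly follow from the others. Equal numbers were therefore treated as pairs in an added block, although the labels do not state this. The check used the same data as the fits.

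The genes and lists were chosen with earlier results of these data known. All 9 mast cell genes are named, with up to 4 genes of each list by lowest unadjusted p and the 5 genes most like Tpsb2, but some results under this rule are not reported here. Other genes (Fcer1g, Hnmt, Tpsg1, Mcpt2, Mcpt8, Cd200r3, Tal1, S100a8, Epx, Lck, Cd3e, Cd3g and Cd3d) were named after their values were seen. So was the presence or absence of a marker. Markers of acinar, duct, endothelial and Schwann cells, fibroblasts and neurons were also read. The normexp alternative used the median signal of a spot. Spots with a flagged local background (1.67% to 1.98% per array) took the array's median background there.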

Additional observations from a re-analysis of the deposited data

How the results depend on the processing

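Tpsb2 kept its direction under all 24 other settings (log2 change 0.34 to 1.39) and its call under 13. The count of mast cell genes that passed was 1 as reported. It was 0 after median scaling, without the filter on dim probes, with the mean of all probes of a gene, with slide as a block, on slide 1 only, with eBayes without trend and, a setting chosen after seeing the data, with the lowest-mean probe of a gene. Leaving out single arrays gave 0 to 1. Mcpt4 and Kit kept their direction under every setting (0.14 to 0.50 and −0.64 to −0.18) and did not pass under any. Hdc turned negative after quantile normalization (−0.029, and −0.029 with the replicate block), median scaling (−0.11), in the authors' values (−0.029) and with array weights (−0.008). It lay between −0.044 and 0.10 when single arrays were left out, with −0.001 without control replicate 1, and between −0.074 and 0.099 with the block and a pair left out.

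Over all genes 27 passed, 26 of them higher and 1 lower in exoNOD cells. Quantile normalization gave 18 higher and 13 lower, as did the authors' values. Both gave Tpsb2 a change of 1.25, just past the threshold (limma adjusted p = 0.0496 and 0.0487 for the authors' values). The changes of Kit (−0.58) and Hdc (−0.029) were also equal in both, so these settings are not separate checks. With the replicate block 2156 passed, and 4185, 337 and 1741 when pair 1, 2 or 3 was left out as well. The block changed the call of none of the mast cell genes. The count was 1191 after quantile normalization with the block, 14 with normexp, 13 after median scaling, 300 with array weights, 2 with slide as a block and 2 on slide 1 only. In limma it was 0 without the filter (4622 at an unadjusted p under 0.05) and 0 without a trend (4352). Leaving out single arrays gave 0 to 1272, and the count was 0 when the array left out was exoNOD replicate 2 (3046 at an unadjusted p under 0.05), control replicate 1 (2552) or control replicate 2 (2417). The median change over all genes was 0.035 as reported and −0.11 after median scaling. The causes were not tested. Signal over background limits Cpa3, Cma1, Fcer1a and Ms4a2, for which no change could be measured.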

Other observations

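Of 10 tested acinar and duct markers 5 were higher and 5 lower in exoNOD cells, and of 8 fibroblast and pericyte markers 4 and 4, against 55.4% higher over all tested genes. With the replicate block the acinar carboxypeptidase Cpa1, of the same enzyme family as Cpa3, rose (log2 change 0.64, limma adjusted p = 0.0381, 0.234 without the block), as did Spp1, which encodes osteopontin (1.56, 0.00347, 0.302 without). The receptor gene Pdgfra rose with the block (1.23, 0.0143, 0.103 without). Of 6 endothelial markers, Plvap rose with the block (0.43, 0.0227) while Emcn (−0.98, 0.0422) and Cdh5 (−0.80, 0.0373) fell, and 0 passed without it in limma (3 at an unadjusted p under 0.05). Schwann cell and neuron markers gave 0 of 6 passing in either fit, with 2 at an unadjusted p under 0.05 without the block. Of all tested genes, 16.6% were at that unadjusted p in limma without the block, and 8.35% passed with the block.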
